A study of Mus musculus with 16 samples.

Results

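The coreceptor genes of the T cell lineage choice (Cd4, Cd8a and Cd8b1) and 4 genes for factors that set that choice (Zbtb7b, Runx1, Runx3 and Cbfb) are described here by their 5-hydroxymethylcytosine (5hmC). This is the base that TET enzymes make from methylated cytosine. The 7 genes were chosen by name. Their members are all regions of the deposited table whose nearest transcript carries one of these symbols, which gave 173 of 177720 regions, and 158 of the 173 held enough reads to be tested. Runx1 held 111 of them, Runx3 34, Cbfb 17, Cd4 4, Cd8a 3, Cd8b1 3 and Zbtb7b 1.

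CD4 and CD8 are surface coreceptors of the T cell receptor, and a mature T cell keeps one of them. The zinc finger protein ThPOK, made from Zbtb7b, is known to hold the CD4 programme, while RUNX3, which binds DNA as a complex with the non-DNA-binding partner CBFβ, is known to silence Cd4 and to activate the Cd8 genes in the CD8 lineage. RUNX1 is the related factor of thymocytes and of CD4 T cells and is a known partner of FOXP3, the factor of regulatory T cells (Treg). 5hmC is an intermediate of demethylation and is known to accumulate over the bodies and enhancers of expressed genes.

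The study mapped 5hmC in CD4 T cells by CMS-IP, in which bisulfite turns 5hmC into cytosine-5-methylenesulfonate and an antiserum pulls down the fragments that hold it. The mice were C57BL/6, aged 5 to 6 weeks, with a Foxp3-eGFP reporter, and gave spleen and lymph node cells. The 4 groups were naive cells (sorted as CD4+, eGFP-, CD25-, CD62L high, CD44 low), Treg (sorted as CD4+, eGFP+), TGFβ iTreg, which are Treg induced in culture from naive CD4+ cells by TGFβ, and RA+VitC iTreg, induced by TGFβ plus retinoic acid plus vitamin C. There were 2 pull-downs and 2 inputs for each of the 4. Retinoic acid and vitamin C were never given singly, both cultures contained TGFβ, and no culture without it was analysed here, so culture and TGFβ cannot be told apart against sorted cells, nor can the added pair from one another. The labels do not say what share of the cultured cells had turned Foxp3 on. They also do not say that replicates were separate mice or cultures, and p-values then measure only a spread that may be technical. CD4 protein was part of both sort gates, and CD8 protein was not named in them.

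Pull-down libraries held 1648804 to 9731897 reads in the regions and inputs 1028822 to 1563165. Pull-down reads were 1.49 and 1.72 times those of the matching input in TGFβ iTreg, 3.88 and 3.14 times in RA+VitC iTreg, and 4.90 to 6.39 times in the sorted cells. These ratios move with the groups, and their part in the differences below was not tested. 3 reads, the limit that a count of 0 allows, stood for 1.787 and 1.497 CPM in TGFβ iTreg and for 0.308 to 0.897 CPM elsewhere, for counting error alone. Levels are given as CPM, read counts scaled by library size and, in the pull-downs, by edgeR's TMM factor. They are relative levels of reads in the regions and not total amounts of 5hmC. How much of the pull-down reads was background was not tested. Fold changes are log2, with their standard error (SE), from 1 edgeR fit over the 8 pull-downs, and a gene or region is said to have risen or fallen where the Benjamini-Hochberg adjusted p over the whole table was under 0.05. Among the 8 inputs, the same test called 0 of the 69 member regions it could test in any of the 6 comparisons by edgeR, with 2 to 8 regions at an unadjusted p under 0.05. It called 0 to 3 of all 44917 input regions tested, so the 0 says little about the members.

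Over the summed regions, the Cd8 pair lost the most and Runx3 gained the most 5hmC of the 7 genes in the comparisons of iTreg with naive cells. Against naive cells, 6 genes fell and Runx3 rose in TGFβ iTreg, where 18.2% of all 14952 genes tested were lower and 23.4% higher. In RA+VitC iTreg, Cd4, Cd8a, Cd8b1 and Cbfb fell while Runx1 and Runx3 rose, beside 26.6% lower and 29.2% higher of all genes. Treg differed less from naive cells: 5 genes fell, by at most 0.30 on the log2 scale, and 0 rose, beside 19.2% lower and 20% higher of all genes. The 3 comparisons with naive cells share the naive libraries and are given side by side, not as separate evidence. In these pooled cells, fewer cells that carry 5hmC at a site and less 5hmC per cell cannot be told apart.

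**Figure D1:**
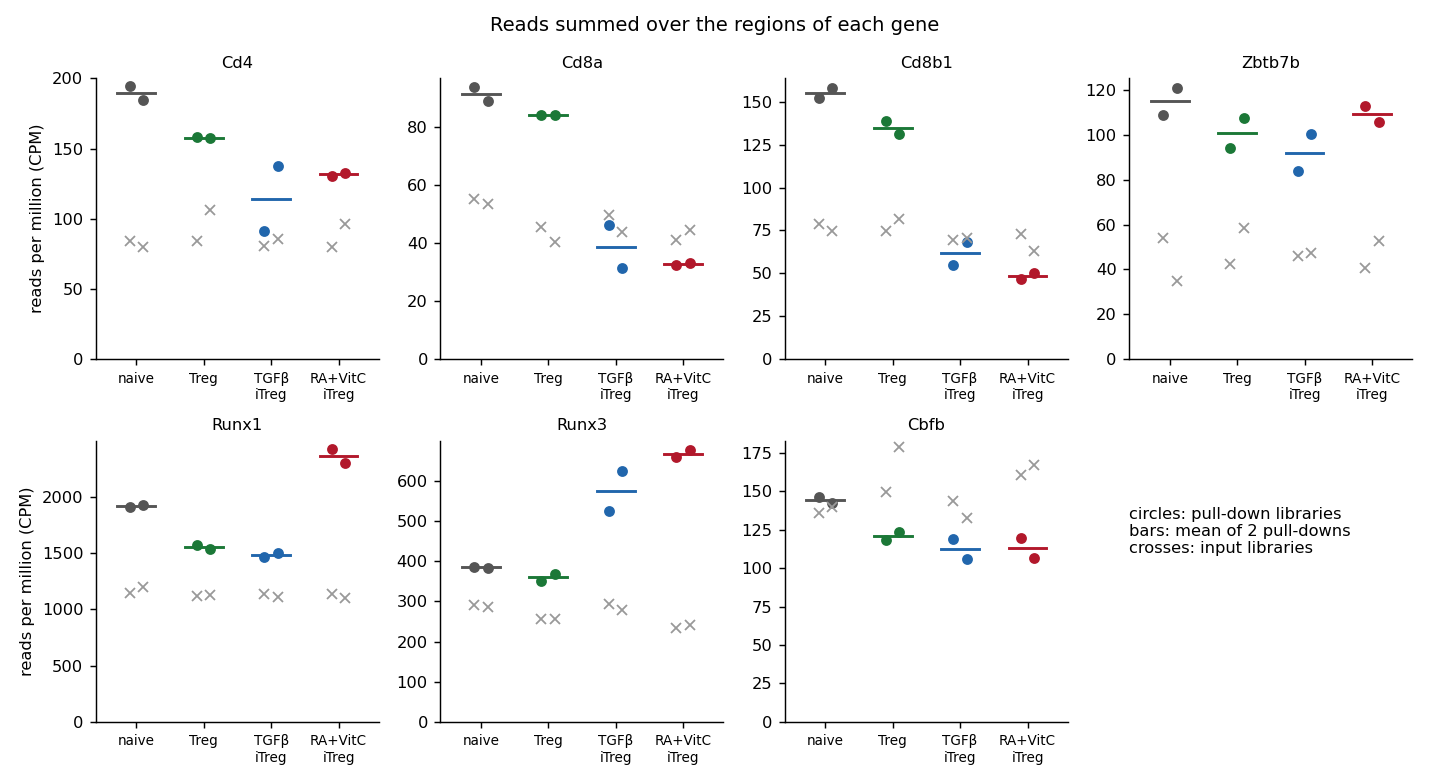
CPM (vertical axes, from 0) summed over the regions of each of the 7 genes, for the 4 groups. Circles are single pull-down libraries, bars their mean (n = 2) and crosses the input libraries: Cd8a and Cd8b1 stand above their inputs in sorted cells and lie at 31.2 to 46.2 and 46.5 to 68.1 CPM in iTreg, while Runx3 rises from 383 to 387 CPM in naive cells to 659.5 and 677 in RA+VitC iTreg.

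Counted region by region, the 158 tested regions held 32 that fell and 3 that rose in Treg against naive cells, which is 20.3% and 1.9% beside 10.1% and 13% of all regions tested. This split was 9 and 0 after thinning to equal depth, 8 and 1 with DESeq2 and 2 and 1 relative to input. Relative to input, counts were lower in the other comparisons too. In TGFβ iTreg 26 fell and 19 rose, 16.5% and 12% beside 8.28% and 13.1%. In RA+VitC iTreg 22 fell and 52 rose, 13.9% and 32.9% beside 15.8% and 21.9%, and with library size alone this split was 40 and 38. RA+VitC iTreg exceeded TGFβ iTreg in 27 regions and fell below it in 2, 17.1% and 1.27% beside 4.6% and 1.98%, a split of 15 and 5 with library size alone. Against Treg, 19 rose and 15 fell in TGFβ iTreg (12% and 9.49% beside 9.55% and 5.88%), and 58 rose and 9 fell in RA+VitC iTreg (36.7% and 5.7% beside 17.8% and 11.4%; 42 and 18 with library size alone). Since 101 of the 158 belong to Runx1 and 30 to Runx3, these counts are mostly theirs, and neighbouring regions of 1 gene are not independent. The shares of all regions, here and below, are not matched for read density. In the 13542 regions of highest density, the median log2 change from naive cells was 0.621 in TGFβ and 0.844 in RA+VitC iTreg. In the 13542 of lowest density it was -0.0729 and -0.396. In Treg the medians of these sets were 0.0249 and 0.0265. The densest set held 14 Runx1 and 3 Runx3 regions, and the part of density in these counts was not tested. Some counts rest on 1 library: without naive replicate 2, 19 in place of 35 regions were called in Treg against naive cells, and without RA+VitC iTreg replicate 1, 47 in place of 74 in RA+VitC iTreg. Without TGFβ iTreg replicate 1, 18 in place of 29 differed between the cultures, and without TGFβ iTreg replicate 2, 21 in place of 34 differed between TGFβ iTreg and Treg.

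Cd4 carried much 5hmC in the sorted cells. Its summed level was 194 and 185 CPM in naive cells, 158 and 157 in Treg, 91.0 and 138 in TGFβ iTreg and 130.3 and 133 in RA+VitC iTreg. The order was naive, Treg, RA+VitC iTreg, TGFβ iTreg, and the cultures overlapped each other. Cd4 fell by 0.26 ± 0.057 (SE) on the log2 scale in Treg (adjusted p = 5.8e-05), by 0.70 ± 0.087 in TGFβ iTreg (adjusted p = 6.7e-12) and by 0.52 ± 0.069 in RA+VitC iTreg (adjusted p = 4.7e-11). The TGFβ iTreg libraries stood apart from each other, with a mean of 114 ± 33 CPM (SD, n = 2). Without TGFβ iTreg replicate 1 the difference between TGFβ iTreg and Treg went from -0.44 (adjusted p = 2.3e-05) to -0.20 (adjusted p = 0.14). Without replicate 2 that between the iTreg groups went from 0.17 (adjusted p = 0.22) to 0.53 (adjusted p = 0.00093). RA+VitC iTreg lay below Treg by 0.26 ± 0.072 (adjusted p = 0.0012), and relative to input neither culture differed from Treg past the threshold (-0.28, adjusted p = 0.28, for TGFβ iTreg and -0.20, adjusted p = 0.38, for the other). With reads thinned to equal depth the Treg difference no longer passed (-0.25, adjusted p = 0.056).

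The loss at Cd4 was uneven along the gene, which runs from its first start at 124838227 to 124814711 on the minus strand of chromosome 6 (all region and start positions are those of the deposited table, build mm9). The region that covers the first start (chr6:124836452-124843202; promoter, 5′UTR, exon and intron) held 38.5 and 39.6 CPM in naive cells, 34.3 and 33.9 in Treg, 29.2 and 41.9 in TGFβ iTreg and 40.7 and 35.0 in RA+VitC iTreg. No comparison of that region passed, and its log2 differences lay between -0.20 and 0.15. The next region, wholly intronic (chr6:124831327-124835404), held 65.5 and 55.8 CPM in naive cells, 53.4 and 50.8 in Treg, 26.8 and 40.9 in TGFβ iTreg and 52.2 and 59.2 in RA+VitC iTreg. It fell in TGFβ iTreg (log2 -0.81 ± 0.15, adjusted p = 4.9e-07) and was higher in RA+VitC than in TGFβ iTreg (0.69 ± 0.16, adjusted p = 0.00075), while its difference from naive cells in RA+VitC iTreg was -0.12 (adjusted p = 0.41). The first intron of Cd4 is known to hold the silencer through which RUNX represses the gene; the table does not mark it, and its place among these regions was not determined.

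Farther along Cd4, a region around the internal start (chr6:124820386-124830427; promoter, 5′UTR, exon, intron and 3′UTR) held 58.7 and 62.0 CPM in naive cells, 40.8 and 45.7 in Treg, 14.3 and 31.4 in TGFβ iTreg and 25.5 and 28.1 in RA+VitC iTreg. The groups of sorted cells overlapped neither each other nor the cultures there. It fell by 0.48 ± 0.091 in Treg (adjusted p = 3.5e-06), by 1.36 ± 0.16 in TGFβ iTreg (adjusted p = 9e-16) and by 1.17 ± 0.12 in RA+VitC iTreg (adjusted p = 2.6e-19). The last region, at the 3′ end (chr6:124814335-124819444), fell in RA+VitC iTreg, by 0.96 ± 0.18 (adjusted p = 7.6e-07), from 24.6 and 21.3 CPM in naive cells to 12.9 and 10.46, and its difference in TGFβ iTreg was -0.48 (adjusted p = 0.073). The F test of whether the regions of Cd4 share 1 fold change (diffSpliceDGE in edgeR) gave adjusted p = 3e-06 for TGFβ iTreg against naive cells, 1.8e-12 when RA+VitC iTreg took their place, 0.0077 between the iTreg groups and 0.082 for Treg against naive cells. By this test 53.2%, 66.7%, 17.9% and 48% of all 12456 genes were uneven in these comparisons. Lag3, the inhibitory receptor gene that borders Cd4 at its 5′ side, had its adjoining region (chr6:124843882-124851897) lower in Treg, by 0.37 ± 0.10 (adjusted p = 0.003). The differences of that region in TGFβ and RA+VitC iTreg were -0.11 (adjusted p = 0.66) and -0.15 (adjusted p = 0.34). Summed over all its regions, Lag3 went the other way in Treg and was higher, by 0.24 (adjusted p = 0.0013).

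The Cd8 genes, which encode the chains of CD8, carried nearly as much 5hmC per kb as Cd4 in sorted CD4 T cells and fell to among the lower genes in iTreg. Per kb of region, Cd8a held 6.51 ± 0.23 CPM (SD, n = 2) in naive cells and Cd8b1 6.79 ± 0.18, beside 7.29 ± 0.26 for Cd4 and a mean of 3.86 over all regions. Those densities put Cd8a at the 97.0th, Cd8b1 at the 97.6th and Cd4 at the 98.3rd percentile of all genes tested in naive cells. In TGFβ iTreg the percentiles were 20.6 for Cd8a, 18.7 for Cd8b1 and 73.2 for Cd4, and in RA+VitC iTreg 15.9, 10.9 and 78.6. Whether the regions were called per library or on pooled libraries is not given in the sources used here. How far each group's depth set the regions, and with them these densities and percentiles, was not tested.

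Cd8a, for the α chain, summed to 93.5 and 89.0 CPM in naive cells, 83.9 and 84.0 in Treg, 46.2 and 31.2 in TGFβ iTreg and 32.3 and 33.2 in RA+VitC iTreg. Sorted cells did not overlap with cultured ones, and the cultures overlapped each other. It fell by 1.26 ± 0.13 in TGFβ iTreg (adjusted p = 2.4e-16) and by 1.48 ± 0.10 in RA+VitC iTreg (adjusted p = 1.1e-26). Its differences were -0.12 in Treg (adjusted p = 0.17) and -0.21 ± 0.17 between the iTreg groups (adjusted p = 0.41). The iTreg counts were small, 72 and 60 reads in TGFβ iTreg and 111 and 111 in RA+VitC iTreg. Cd8b1, for the β chain, summed to 152 and 158 CPM in naive cells, 139 and 131 in Treg, 55.1 and 68.1 in TGFβ iTreg and 46.5 and 49.97 in RA+VitC iTreg. It fell by 1.32 ± 0.10 in TGFβ iTreg (adjusted p = 1.1e-23), by 1.69 ± 0.086 in RA+VitC iTreg (adjusted p = 1.6e-38) and by 0.20 ± 0.058 in Treg (adjusted p = 0.0022). The Treg call ended with DESeq2 (-0.20, adjusted p = 0.11), after thinning to equal depth (-0.096, adjusted p = 0.6), and relative to input (-0.21, adjusted p = 0.42). It also ended over transcript regions alone (-0.13, adjusted p = 0.11), without naive replicate 2 (-0.17, adjusted p = 0.087) and without Treg replicate 2 (-0.16, adjusted p = 0.067). Cd8b1 was also lower in RA+VitC than in TGFβ iTreg, by 0.37 ± 0.13 (adjusted p = 0.036). Of 16 alternatives 7 ended that call, among them leaving out TGFβ iTreg replicate 2 (-0.19, adjusted p = 0.57), RA+VitC iTreg replicate 1 (-0.31, adjusted p = 0.19) or RA+VitC iTreg replicate 2 (-0.42, adjusted p = 0.052).

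Against Treg, the Cd8 pair was lower in both cultures, Cd8a by 1.15 ± 0.13 and 1.36 ± 0.11 and Cd8b1 by 1.11 ± 0.10 and 1.48 ± 0.088 in TGFβ and RA+VitC iTreg (adjusted p from 1.2e-13 to 2.7e-32). In these comparisons 15.1% and 23.1% of all genes were lower. In the iTreg groups the pull-down CPM of the Cd8 genes lay below their input CPM. Cd8a stood at 0.82 and 0.77 times and Cd8b1 at 0.88 and 0.71 times its input CPM in TGFβ and RA+VitC iTreg. In naive cells they stood at 1.68 and 2.02 times. Summed pull-down CPM were TMM-scaled over the genes tested, while input CPM used all reads in the regions. These are therefore not ratios of read shares. In the inputs no member gene passed in any comparison by edgeR, where 0 to 35 of all genes did. At an unadjusted p under 0.05 there were 4 of the 7 genes for Treg against naive cells and 0 to 2 in the other comparisons. The input differences of the 7 genes in Treg ran from -0.35 (Cd8a) to 0.23 (Cbfb). The Cd8a input differences from naive cells were -0.21 (adjusted p = 0.97) in TGFβ iTreg and -0.33 (adjusted p = 0.79) in RA+VitC iTreg.

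The fall ran across the Cd8 locus on chromosome 6, where Cd8b1 (from 71272806 to 71287445) and Cd8a (from 71323421 to 71329165) lie on the plus strand. The region over the body of Cd8b1 (chr6:71272871-71287929) held 105 CPM in both naive libraries, 99.0 and 90.0 in Treg, 32.8 and 48.4 in TGFβ iTreg and 29.0 and 32.3 in RA+VitC iTreg. It fell by 1.35 ± 0.13 (adjusted p = 1e-23) and by 1.78 ± 0.11 (adjusted p = 1.5e-52) in the cultures. The other Cd8b1 regions, both past the gene's end (chr6:71288606-71293792 and chr6:71294595-71297197), fell by 1.34 and 1.34 in TGFβ iTreg and by 1.14 and 1.67 in RA+VitC iTreg. The 3 regions fell alike in TGFβ iTreg as far as the F test shows (adjusted p = 1) and unevenly in RA+VitC iTreg (adjusted p = 0.029).

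The region over the start and body of Cd8a (chr6:71319615-71332280) held 86.2 and 81.7 CPM in naive cells, 75.3 and 76.1 in Treg, 38.1 and 26.9 in TGFβ iTreg and 29.6 and 30.2 in RA+VitC iTreg. It fell by 1.39 ± 0.14 (adjusted p = 1e-20) and by 1.49 ± 0.12 (adjusted p = 1.3e-34). The other pair of Cd8a regions, both intergenic and at most 3.19 CPM in each of the 8 pull-downs, passed in no comparison, so the Cd8a result rests on this region. Without it the difference in TGFβ iTreg was -0.099 (adjusted p = 0.88) and that in RA+VitC iTreg -0.54 (adjusted p = 0.22). Between the Cd8 genes, in the stretch known to hold Cd8 enhancers, the longest region with no symbol (chr6:71300357-71315404) fell from 71.8 CPM in naive cells to 42.8 in TGFβ iTreg (log2 -0.74 ± 0.13, adjusted p = 5.8e-07) and 50.3 in RA+VitC iTreg (-0.51 ± 0.11, adjusted p = 1.2e-05). The bordering genes' nearest regions fell too. That of Rmnd5a, past Cd8a (chr6:71337404-71350959), fell by 1.08 ± 0.14 and 1.38 ± 0.12 in TGFβ and RA+VitC iTreg, and that of Smyd1, before Cd8b1 (chr6:71269797-71271975), by 0.80 ± 0.27 and 1.49 ± 0.24.

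**Figure D2:**
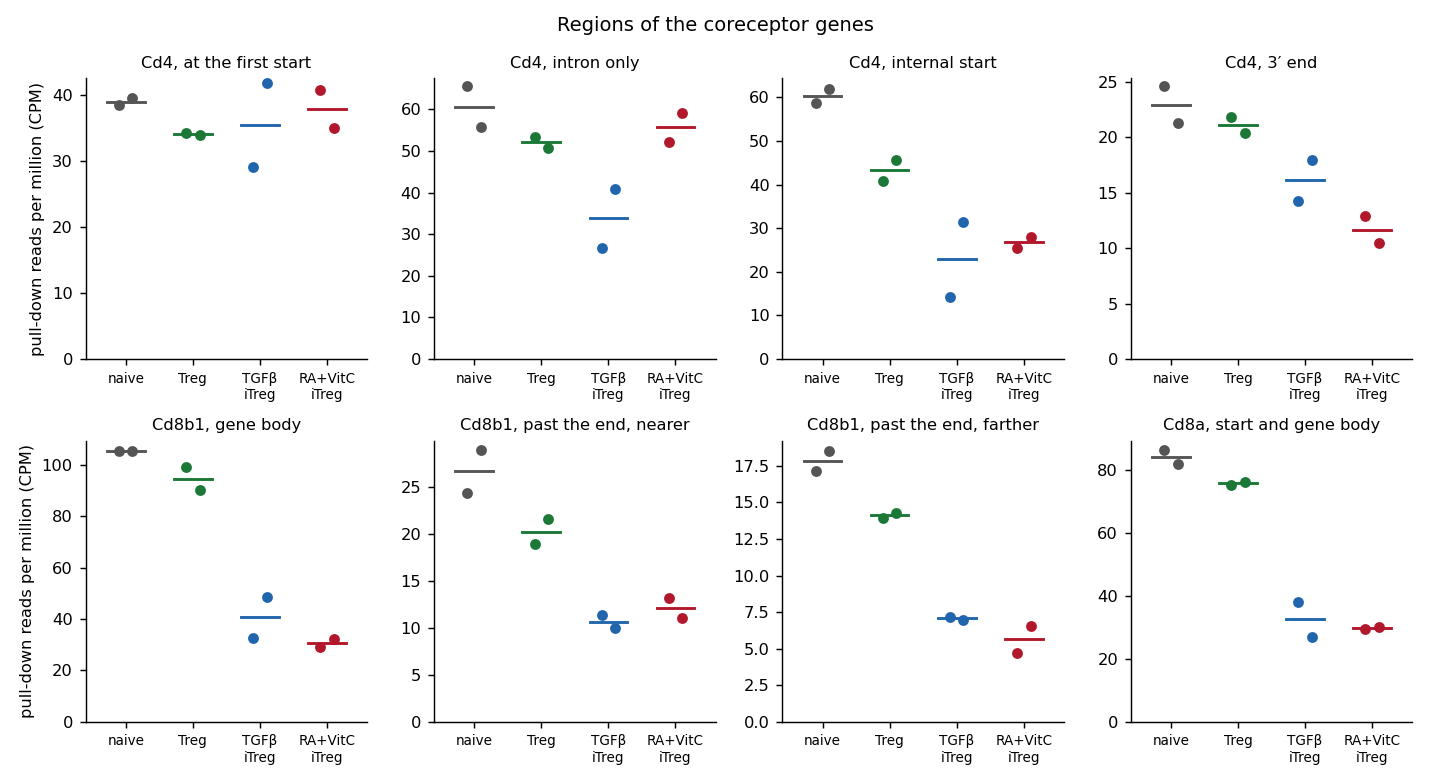
Pull-down CPM (vertical axes, from 0) in the 4 Cd4 regions, the 3 Cd8b1 regions and the main Cd8a region, for the 4 groups. Circles are single libraries and bars their mean (n = 2): the region at the first start of Cd4 stays between 29.2 and 41.9 CPM in all groups, and the 4 Cd8 regions are lower in both iTreg groups than in sorted cells.

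The start of Cd8a lay inside its falling region, so its promoter is shown for the density of CpG, the dinucleotide where 5hmC is mainly found. RefSeq's table (build GRCm38.p6, whose positions are not those of the deposited table) gave a promoter of 300 bases, 250 before to 50 after the start, for 5 of the 7 genes and 8 starts in all. Capitals mark CpG here and in the promoters that follow. The Cd8a promoter, at chr6:71373177-71373476 on the plus strand, holds 3 CpG, and 76.7% of all 32851 promoters hold as many or more.
Cd8a: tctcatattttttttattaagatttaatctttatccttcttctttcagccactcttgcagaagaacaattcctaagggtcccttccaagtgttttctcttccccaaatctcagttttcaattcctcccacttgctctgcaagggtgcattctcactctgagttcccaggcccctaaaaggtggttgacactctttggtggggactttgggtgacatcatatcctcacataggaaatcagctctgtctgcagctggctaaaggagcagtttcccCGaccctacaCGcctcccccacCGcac

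Zbtb7b, the ThPOK gene and the CD4-lineage factor, changed little. Its single region (chr3:89175960-89194093; promoter, 5′UTR, exon, intron and 3′UTR) covers the second of the starts in the table, at 89191593 on the minus strand, and not the first, at 89197125. Summed Zbtb7b reads came to 109 and 121 CPM in naive cells, 94.1 and 108 in Treg, 84.0 and 100.3 in TGFβ iTreg and 113 and 106 in RA+VitC iTreg. In the order naive, RA+VitC iTreg, Treg, TGFβ iTreg, each group overlapped the next. It fell by 0.31 ± 0.10 in TGFβ iTreg (adjusted p = 0.0054) and by 0.19 ± 0.064 in Treg (adjusted p = 0.012), and the difference in RA+VitC iTreg was -0.076 ± 0.076 (adjusted p = 0.41). Of the alternatives, 4 ended the call in TGFβ iTreg, among them the fit relative to input (-0.40, adjusted p = 0.19) and leaving out TGFβ iTreg replicate 1 (-0.20, adjusted p = 0.18) or naive replicate 2 (-0.23, adjusted p = 0.096). The call in Treg was ended by 5 alternatives, among them leaving out Treg replicate 1 (-0.099, adjusted p = 0.34) or naive replicate 2 (-0.11, adjusted p = 0.38). Zbtb7b was higher in RA+VitC iTreg than in TGFβ iTreg without TGFβ iTreg replicate 2 (0.38, adjusted p = 0.045, against 0.24 and 0.1) and than in Treg without Treg replicate 2 (0.22, adjusted p = 0.044, against 0.11 and 0.22). With library size alone in place of TMM scaling, the difference in RA+VitC iTreg was -0.23 (adjusted p = 0.0047); that scaling moved the median of all genes by -0.15 in this comparison.

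Runx3, the CD8-lineage factor, gained 5hmC in both cultures. Its 34 regions summed to 387 and 383 CPM in naive cells, 351 and 369 in Treg, 525 and 625 in TGFβ iTreg and 659.5 and 677 in RA+VitC iTreg, so both cultures lay above the sorted cells and RA+VitC iTreg above TGFβ iTreg. Runx3 rose by 0.59 ± 0.056 in TGFβ iTreg (adjusted p = 1.2e-17) and by 0.80 ± 0.049 in RA+VitC iTreg (adjusted p = 4.1e-31). Its difference in Treg was -0.095 ± 0.048 (adjusted p = 0.11), which passed over transcript regions alone (-0.17, adjusted p = 0.01) and without its most-read region (-0.13, adjusted p = 0.027). Against Treg it rose by 0.68 ± 0.056 and 0.89 ± 0.05 (adjusted p = 4e-21 and 1.2e-34), beside 20.8% and 26.6% of all genes higher. RA+VitC iTreg exceeded TGFβ iTreg by 0.21 ± 0.056 (adjusted p = 0.0025), where 12.4% of all genes were higher. That call ended with library size alone (0.11, adjusted p = 0.13; the median of all genes moved by -0.10), without TGFβ iTreg replicate 1 (0.10, adjusted p = 0.26) and over transcript regions alone (0.12, adjusted p = 0.29).

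**Figure D3:**
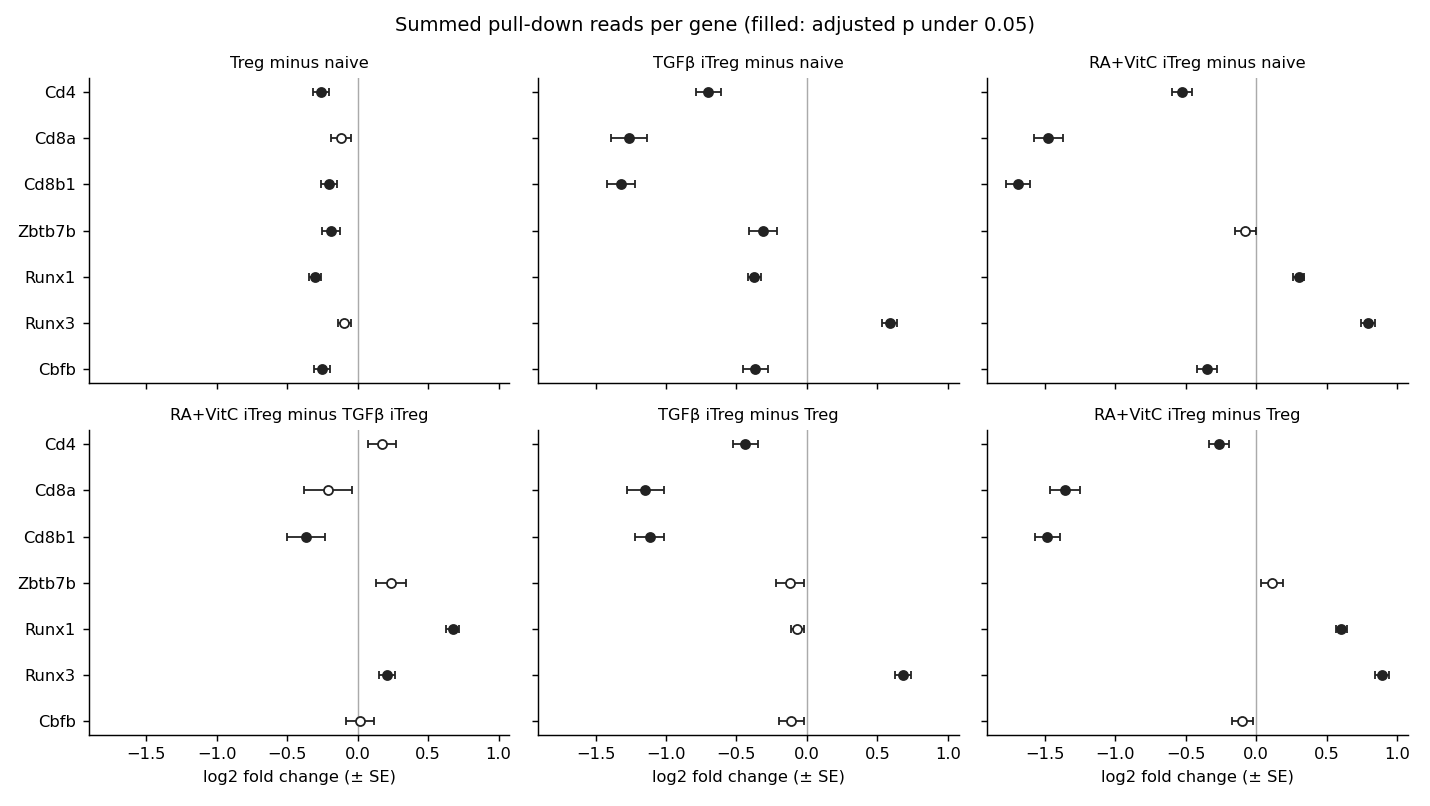
Log2 fold change of the summed pull-down reads (horizontal axes) of the 7 genes in the 6 comparisons, as the fitted value ± SE, with filled points where the adjusted p was under 0.05. Cd8a and Cd8b1 lie furthest to the left in the 4 comparisons of a culture with sorted cells, at -1.11 to -1.69, and Runx3 furthest to the right, at 0.59 to 0.89.

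Runx3 is transcribed from a distal and a proximal promoter, and both are shown because the 5hmC changes split around them. In the deposited table the distal start lies at 134676560 and the proximal one 31851 bases farther, on the plus strand of chromosome 4. In RefSeq's GRCm38.p6 the matching starts are 31900 bases apart, with promoters at chr4:135120395-135120694 and chr4:135152295-135152594. The distal promoter holds 8 CpG and the proximal one 45, a number that 1.93% of all promoters reach. Of the RUNX core motif TGTGGT, searched on both strands (ACCACA on the other), the distal promoter holds 2 matches and the proximal one 0, and 16.8% of all promoters of this length hold at least 1.
Runx3 distal: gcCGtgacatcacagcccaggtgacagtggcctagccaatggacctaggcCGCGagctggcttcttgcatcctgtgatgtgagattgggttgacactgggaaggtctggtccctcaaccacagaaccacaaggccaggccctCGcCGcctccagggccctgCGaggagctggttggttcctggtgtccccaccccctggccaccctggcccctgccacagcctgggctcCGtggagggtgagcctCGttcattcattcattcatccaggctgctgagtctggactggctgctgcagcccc
Runx3 proximal: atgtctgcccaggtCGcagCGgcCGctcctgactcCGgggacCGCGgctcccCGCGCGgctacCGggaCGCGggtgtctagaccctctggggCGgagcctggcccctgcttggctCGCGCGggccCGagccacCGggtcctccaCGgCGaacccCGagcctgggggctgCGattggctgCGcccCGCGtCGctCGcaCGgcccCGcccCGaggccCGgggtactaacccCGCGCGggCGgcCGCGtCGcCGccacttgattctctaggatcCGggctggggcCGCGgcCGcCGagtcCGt

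The gain at Runx3 lay upstream of and around the distal start. The 15 regions whose centre lies upstream of it summed to 194.5 and 190.3 CPM in naive cells, 180.2 and 193 in Treg, 324 and 412 in TGFβ iTreg and 478 and 480 in RA+VitC iTreg. Of the 13 tested, 6 rose and 0 fell in TGFβ iTreg and 9 rose and 0 fell in RA+VitC iTreg, where 13.1% and 21.9% of all regions rose. The 10 regions between the starts held 48.3 and 47.6 CPM in naive cells, 45.6 and 48.0 in Treg, 53.0 and 52.9 in TGFβ iTreg and 84.7 and 77.7 in RA+VitC iTreg, with 0 calls in TGFβ iTreg and 3 rises in RA+VitC iTreg. From the proximal start to the gene's end, 5 regions held 107 and 105 CPM in naive cells, 86.8 and 91.9 in Treg, 90.5 and 112 in TGFβ iTreg and 87.0 and 91.8 in RA+VitC iTreg, with no rise and, in RA+VitC iTreg, 1 fall. The F test of unequal change gave adjusted p = 1.1e-34 and 2e-84 for the cultures against naive cells and 5.8e-11 between the cultures.

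The region of Runx3 with the most reads, intergenic and centred at -17.5 kb from the distal start (negative distances are upstream; chr4:134650967-134667237), held 55.4 and 51.1 CPM in naive cells, 56.4 and 56.8 in Treg, 125 and 149 in TGFβ iTreg and 187 and 166 in RA+VitC iTreg. It also had the lowest p over the 4 groups of any Runx3 region, and rose by 1.37 ± 0.11 (adjusted p = 1.3e-36) and 1.74 ± 0.088 (adjusted p = 1.2e-83) in the cultures. The region over the distal start (chr4:134670083-134679652) held 42.2 and 42.8 CPM in naive cells, 35.0 and 37.7 in Treg, 52.4 and 75.8 in TGFβ iTreg and 85.8 and 99.2 in RA+VitC iTreg, so no naive or Treg library reached the cultures. It rose by 0.61 ± 0.13 (adjusted p = 2.7e-05) and 1.12 ± 0.10 (adjusted p = 2.2e-27), and RA+VitC exceeded TGFβ iTreg by 0.51 ± 0.13 (adjusted p = 0.002). No region covered the proximal start, where a gap of 2333 bases stood between neighbouring regions.

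A few small Runx3 regions differed between the cultures. An intronic region at 16.2 kb from the distal start (chr4:134692429-134693152) held 1.41 and 1.03 CPM in naive cells, 1.79 and 1.54 in Treg, 1.79 and 0.499 in TGFβ iTreg and 5.57 and 8.67 in RA+VitC iTreg. It had the largest rise of any Runx3 region in RA+VitC iTreg, of 2.54 ± 0.38 over naive cells (adjusted p = 5.1e-10) and of 2.68 ± 0.61 over TGFβ iTreg (adjusted p = 0.00048). Both TGFβ iTreg values of this region were at or below the level of 3 reads. An intergenic region at -39.6 kb (chr4:134636500-134637405) went the other way, at 1.41 and 1.44 CPM in naive cells, 1.15 and 1.77 in Treg, 7.15 and 13.0 in TGFβ iTreg and 4.10 and 4.18 in RA+VitC iTreg. It rose most in TGFβ iTreg, by 2.83 ± 0.39 (adjusted p = 2.1e-11), and was lower in RA+VitC than in TGFβ iTreg by 1.31 ± 0.38 (adjusted p = 0.013). A region at -77.0 kb (chr4:134599186-134599988) was the other one lower in RA+VitC iTreg, with 8.34 and 9.48 CPM in TGFβ iTreg and 3.22 and 2.99 in RA+VitC iTreg (-1.52 ± 0.41, adjusted p = 0.0066). The lowest change in TGFβ iTreg, past the gene's end (chr4:134747565-134748508, -2.23 ± 0.83, adjusted p = 0.035), rests on 0.596 and 0.499 CPM in TGFβ iTreg, 1 read in each library.

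**Figure D4:**
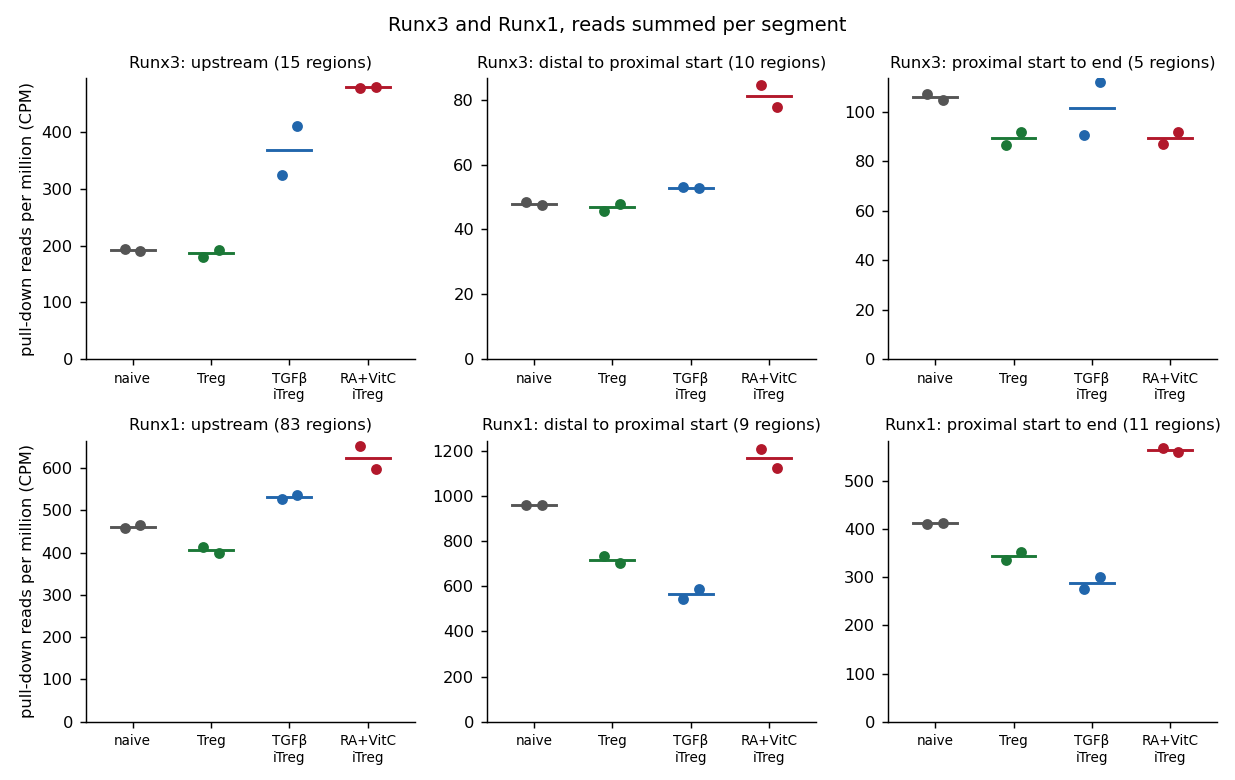
Pull-down CPM (vertical axes, from 0) summed over the regions of Runx3 (top) and Runx1 (bottom) upstream of the distal start, between the starts, and from the proximal start to the gene's end, for the 4 groups. Circles are libraries and bars their mean (n = 2): Runx3 rises upstream in both cultures, and Runx1 is lowest in TGFβ iTreg and highest in RA+VitC iTreg in the 2 segments past the distal start.

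Runx1, the largest of the 7 loci, separated the cultures. Its 111 regions summed to 1914 and 1924 CPM in naive cells, 1576 and 1533 in Treg, 1464 and 1500 in TGFβ iTreg and 2429 and 2299 in RA+VitC iTreg, with no overlap between groups. It fell by 0.30 ± 0.040 in Treg (adjusted p = 1.3e-10) and by 0.37 ± 0.044 in TGFβ iTreg (adjusted p = 1.1e-12). It rose by 0.30 ± 0.041 in RA+VitC iTreg (adjusted p = 1.3e-10) and was higher in RA+VitC than in TGFβ iTreg by 0.67 ± 0.045 (adjusted p = 7.1e-27). Against Treg the rise in RA+VitC iTreg was 0.60 ± 0.041 (adjusted p = 1.8e-27). Each of these calls held in all 16 alternatives. The difference between TGFβ iTreg and Treg was -0.068 ± 0.045 (adjusted p = 0.24), and passed over transcript regions alone (-0.25, adjusted p = 1e-05) and with library size alone (-0.12, adjusted p = 0.0034).

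Runx1 lies on the minus strand of chromosome 16, with its distal start at 92826311, its proximal start 128738 bases farther and its end at 92601711. Neither start was covered by a region, and the gaps there were 2861 and 2056 bases wide. RefSeq's promoters, 128745 bases apart on GRCm38.p6 (chr16:92826025-92826324 and chr16:92697280-92697579), are shown because, as at Runx3, the proximal one holds many more CpG than the distal one. The distal one holds 2 CpG and the proximal one 35, a number that 6.95% of all promoters reach, and they hold 2 and 0 matches of the RUNX core motif.
Runx1 distal: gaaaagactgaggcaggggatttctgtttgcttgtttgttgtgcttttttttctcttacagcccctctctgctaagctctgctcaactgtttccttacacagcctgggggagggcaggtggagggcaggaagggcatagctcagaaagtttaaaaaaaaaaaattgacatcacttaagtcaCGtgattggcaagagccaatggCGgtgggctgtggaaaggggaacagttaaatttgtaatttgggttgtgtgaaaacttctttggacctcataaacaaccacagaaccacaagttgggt
Runx1 proximal: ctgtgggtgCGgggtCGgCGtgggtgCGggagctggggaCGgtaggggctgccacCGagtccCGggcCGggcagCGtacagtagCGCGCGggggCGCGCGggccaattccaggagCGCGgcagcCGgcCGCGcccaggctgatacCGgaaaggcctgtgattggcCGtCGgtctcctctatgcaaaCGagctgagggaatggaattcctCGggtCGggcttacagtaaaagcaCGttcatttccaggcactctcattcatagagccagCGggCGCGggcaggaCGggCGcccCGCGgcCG

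The Runx1 regions are given by their place along the locus. Of all regions tested, 13% rose and 10.1% fell in Treg, 13.1% and 8.28% in TGFβ iTreg and 21.9% and 15.8% in RA+VitC iTreg. Upstream of the distal start, 83 regions summed to 457 and 466 CPM in naive cells, 414 and 398 in Treg, 527 and 536 in TGFβ iTreg and 651 and 597 in RA+VitC iTreg. Of 75 tested, 3 rose and 14 fell in Treg, 13 rose and 5 fell in TGFβ iTreg, and 27 rose and 10 fell in RA+VitC iTreg. Between the starts, 9 regions summed to 959 and 961 CPM in naive cells, 732 and 704 in Treg, 544 and 586 in TGFβ iTreg and 1209 and 1123 in RA+VitC iTreg. There, 8 regions fell in Treg, 6 fell in TGFβ iTreg, and 7 rose and 1 fell in RA+VitC iTreg. Of the 9, 7 were higher in RA+VitC than in TGFβ iTreg, beside 4.6% of all regions. That share is not matched for width or reads, and these regions were up to 50310 bases wide. From the proximal start to the end, 11 regions summed to 410.5 and 412 CPM in naive cells, 335 and 353 in Treg, 275 and 299.8 in TGFβ iTreg and 567 and 558 in RA+VitC iTreg. They gave 4 falls in Treg, 6 falls in TGFβ iTreg and 5 rises in RA+VitC iTreg. The F test of unequal change gave adjusted p = 1.1e-26 for Treg, 2.6e-155 for TGFβ iTreg and, in RA+VitC iTreg, 4.5e-174 against naive cells. Against Treg, Runx1 and Runx3 were among 4 uneven members of 6 with several regions in TGFβ iTreg and among 5 in RA+VitC iTreg, where 44.9% and 58.9% of all genes were uneven.

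The region with the most reads of all members spans 50310 bases before the proximal start (chr16:92698767-92749076; promoter and intron). It held 362 and 363 CPM in naive cells, 264 and 253 in Treg, 178 and 177 in TGFβ iTreg and 421 and 377 in RA+VitC iTreg. It fell by 0.49 ± 0.069 in Treg (adjusted p = 8.5e-11) and by 1.03 ± 0.088 in TGFβ iTreg (adjusted p = 9.9e-30), and RA+VitC exceeded TGFβ iTreg by 1.17 ± 0.091 (adjusted p = 2.8e-34). Its difference in RA+VitC iTreg from naive cells was 0.14 ± 0.071 (adjusted p = 0.11). On the other side of the proximal start, a region with 5′UTR, exon, intron and 3′UTR parts (chr16:92682382-92696710) had the lowest p over the 4 groups of any Runx1 region. It held 63.2 and 70.5 CPM in naive cells, 55.6 and 56.7 in Treg, 40.5 and 39.9 in TGFβ iTreg and 173 and 155 in RA+VitC iTreg. RA+VitC iTreg stood above every other library, by 2.03 ± 0.13 against TGFβ iTreg (adjusted p = 1.1e-50), by 1.29 ± 0.086 against naive cells (adjusted p = 1.1e-48) and by 1.54 ± 0.089 against Treg (adjusted p = 3.2e-65).

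Far upstream, some Runx1 regions rose in both cultures. The largest rise of any Runx1 region over naive cells, in both cultures, was in an intergenic region at -206.2 kb from the distal start (chr16:93031791-93033155). It held 0.513 and 0.719 CPM in naive cells, 1.02 and 1.77 in Treg, 17.3 and 10.48 in TGFβ iTreg and 11.1 and 5.68 in RA+VitC iTreg. It rose by 4.39 ± 0.41 (adjusted p = 2.5e-24) and 3.70 ± 0.40 (adjusted p = 1.1e-18), from naive levels of few reads. The largest rise in Treg, at -123 kb (chr16:92948617-92949773), was shared by all groups but naive cells, at 0.256 and 0.719 CPM in naive cells, 4.22 and 3.54 in Treg, 3.57 and 3.99 in TGFβ iTreg and 4.69 and 2.69 in RA+VitC iTreg. It rose by 2.86 ± 0.43 in Treg (adjusted p = 2.2e-09), by 2.84 ± 0.63 in TGFβ iTreg (adjusted p = 8.5e-05) and by 2.80 ± 0.53 in RA+VitC iTreg (adjusted p = 1.1e-06). The strongest fall in RA+VitC iTreg, at -61.7 kb (chr16:92887515-92888442), went from 3.21 and 4.32 CPM in naive cells to 0.879 and 1.495 (-1.67 ± 0.48, adjusted p = 0.0022). It rests on few reads, as 0.879 CPM was the level of 3 reads in RA+VitC iTreg replicate 1.

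**Figure D5:**
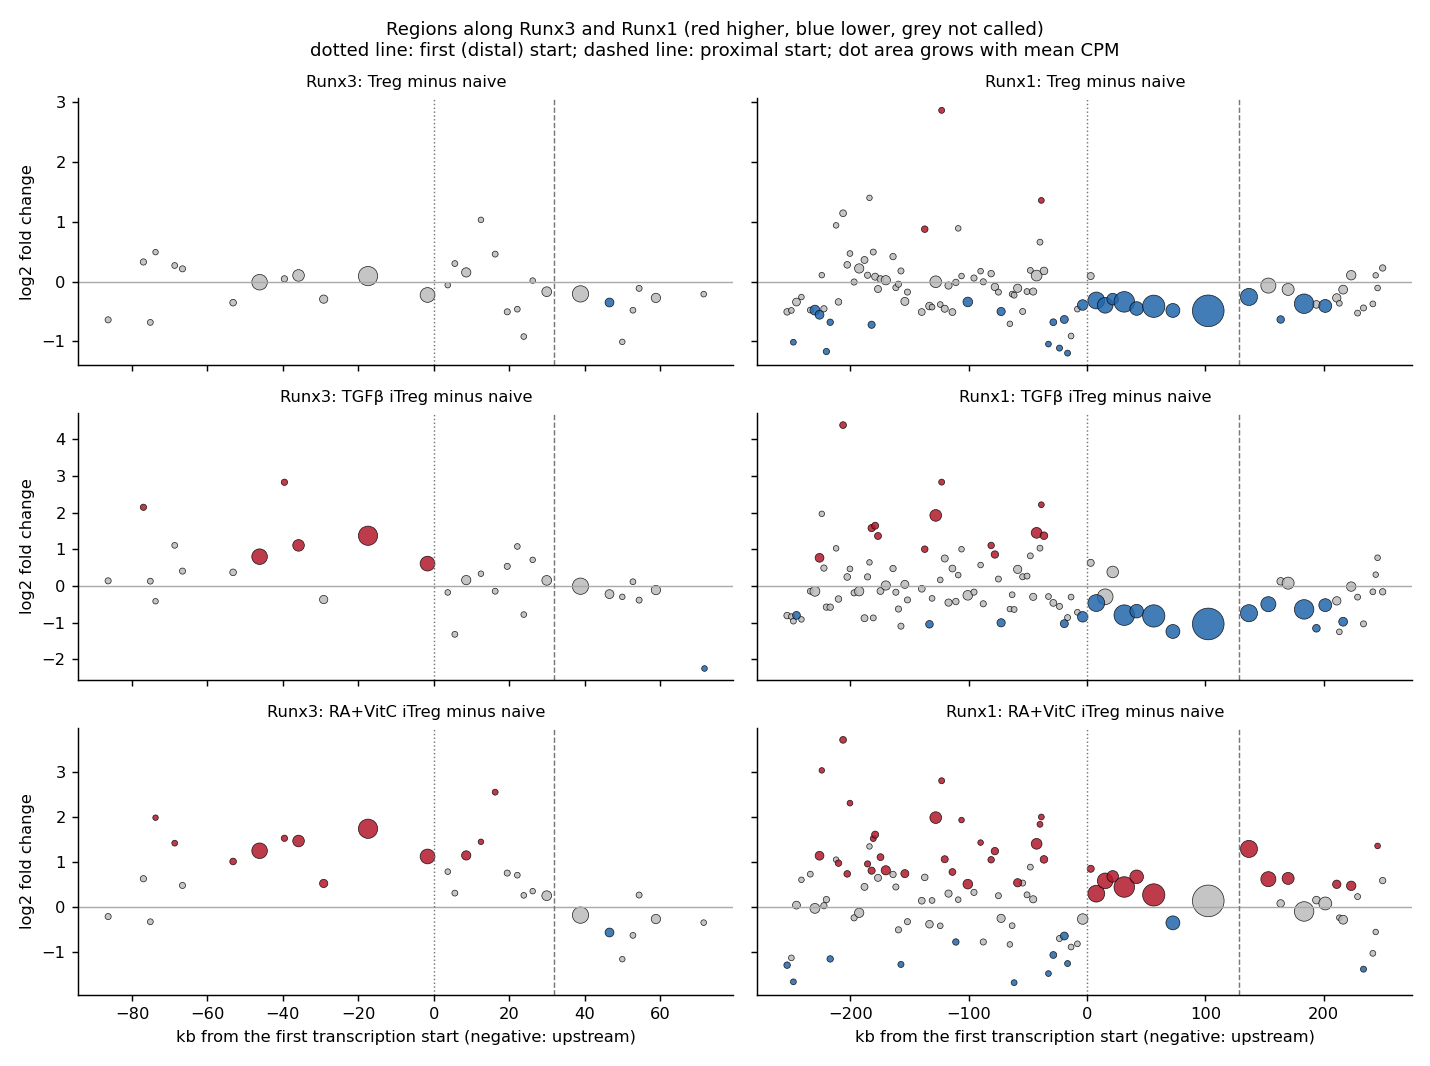
Log2 fold change against naive cells (vertical axes) of each tested region of Runx3 (left, 30) and Runx1 (right, 101) by its distance in kb from the distal start (horizontal axes), for Treg, TGFβ iTreg and RA+VitC iTreg. Red and blue dots rose and fell and grey ones did not pass, dot area grows with mean CPM, and the lines mark the distal (dotted) and proximal (dashed) starts: red Runx3 dots lie mainly upstream, and the Runx1 dots past the distal start are more often blue than red in TGFβ iTreg and more often red than blue in RA+VitC iTreg.

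Cbfb, the gene of the shared RUNX partner CBFβ, was lower in the other 3 groups than in naive cells. Its 17 regions summed to 146 and 142 CPM in naive cells, 118 and 124 in Treg, 119 and 106 in TGFβ iTreg and 119.5 and 106.5 in RA+VitC iTreg, so naive cells lay above the other groups, which overlapped each other. It fell by 0.25 ± 0.059 in Treg (adjusted p = 0.00018), by 0.37 ± 0.087 in TGFβ iTreg (adjusted p = 0.00024) and by 0.35 ± 0.071 in RA+VitC iTreg (adjusted p = 9e-06). Its largest region (chr8:107695822-107703794; exon and intron) held 47.8 and 46.0 CPM in naive cells, 35.9 and 40.0 in Treg, 22.6 and 28.9 in TGFβ iTreg and 30.5 and 32.3 in RA+VitC iTreg, and fell in each (by 0.30, 0.85 and 0.58). Without that region the fall in TGFβ iTreg was 0.18 and did not pass (adjusted p = 0.15), nor did it without TGFβ iTreg replicate 2 (-0.27, adjusted p = 0.063). Against Treg, RA+VitC iTreg was at -0.097 (adjusted p = 0.28), and at -0.26 (adjusted p = 0.0012) with library size alone. The pull-down CPM of Cbfb was 1.05 times its input CPM in naive cells and below it, at 0.69 to 0.82 times, in the other groups. Its start at 107694574 fell in a gap of 1839 bases, and its promoter, shown for comparison with the CpG-rich RUNX promoters (chr8:105170424-105170723 on GRCm38.p6, plus strand), holds 30 CpG, a number that 11.7% of all promoters reach.
Cbfb: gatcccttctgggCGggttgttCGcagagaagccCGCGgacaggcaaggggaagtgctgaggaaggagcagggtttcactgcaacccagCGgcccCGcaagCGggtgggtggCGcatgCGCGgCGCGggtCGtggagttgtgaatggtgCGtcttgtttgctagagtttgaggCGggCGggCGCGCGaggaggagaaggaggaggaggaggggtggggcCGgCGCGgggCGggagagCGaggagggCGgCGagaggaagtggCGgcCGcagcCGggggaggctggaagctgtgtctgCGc

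The other genes of the lineage choice moved in both directions. Of 36 genes of a CD4 and CD8 lineage list, 34 were in the table and tested. In TGFβ iTreg 16 fell and 6 rose against naive cells (median log2 -0.14, beside -0.02 over all genes), which is 47.1% and 17.6% beside 18.2% and 23.4% of all genes. Examples were Satb1, a chromatin organiser of thymocytes (-0.70 ± 0.044), Lck, the kinase bound by CD4 and CD8 (-0.70 ± 0.073), Lef1, a T cell factor (-0.63 ± 0.045), and Socs1, a cytokine signalling inhibitor (1.52 ± 0.088). In RA+VitC iTreg 12 fell and 11 rose, 35.3% and 32.4% beside 26.6% and 29.2%. They were led by Satb1 (-1.06 ± 0.043), Patz1, a zinc finger partner of CD8 gene control (-0.48 ± 0.074), Gata3, a factor upstream of ThPOK (-0.39 ± 0.053), and Socs1 (1.56 ± 0.074). In Treg 11 fell and 10 rose (32.4% and 29.4% beside 19.2% and 20%), with Il7r, the IL-7 receptor gene, at -0.66 ± 0.050 and Runx2 at 0.52 ± 0.046. Between the cultures 12 genes were higher and 3 lower in RA+VitC iTreg, 35.3% and 8.82% beside 12.4% and 10.7% of all genes. Lck at 0.48 ± 0.08 was among the former and Satb1 at -0.36 ± 0.046 among the latter. Against Treg, 7 rose and 16 fell in TGFβ iTreg (20.6% and 47.1% beside 20.8% and 15.1% of all genes). In RA+VitC iTreg 10 rose and 13 fell (29.4% and 38.2% beside 26.6% and 23.1%).

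Of 17 genes of a RUNX3 and cytotoxic lineage list, 15 were tested. Against naive cells 7 rose and 3 fell in TGFβ iTreg, 46.7% and 20% beside 23.4% and 18.2% of all genes. In RA+VitC iTreg 7 rose and 5 fell, 46.7% and 33.3% beside 29.2% and 26.6%. Gzmb, for the cytotoxic protease granzyme B, rose by 1.10 ± 0.066 and 1.197 ± 0.057, and Ccl5, a chemokine gene, by 1.24 ± 0.23 and 1.00 ± 0.20. Ifng rose by 1.31 ± 0.069 in TGFβ iTreg, and Itgae, for the CD103 integrin, by 0.83 ± 0.070 in RA+VitC iTreg. The means of both genes lay above naive cells in the other culture too. Ifng held 136.2 CPM in naive cells and 190.7 in RA+VitC iTreg, and Itgae 92.5 in naive cells and 137.7 in TGFβ iTreg. Prf1, for perforin, fell by 0.77 ± 0.17 and 1.37 ± 0.15. Crtam fell by 0.73 ± 0.12 and 0.85 ± 0.099, and Eomes by 0.15 ± 0.063 and 0.45 ± 0.056, in TGFβ and RA+VitC iTreg. In Treg 7 rose and 6 fell, 46.7% and 40% beside 20% and 19.2%. Among the risers were Ccl5 (1.12 ± 0.16) and Tbx21, the T-bet gene (1.06 ± 0.12). Among the fallers were the NK receptor genes Klrd1 (-1.27 ± 0.19) and Klrk1 (-0.98 ± 0.22), and Prf1 (-1.21 ± 0.12). Against Treg 7 rose and 3 fell in TGFβ iTreg (46.7% and 20% beside 20.8% and 15.1%) and 6 rose and 5 fell in RA+VitC iTreg (40% and 33.3% beside 26.6% and 23.1%). Between the cultures 1 was higher and 5 lower in RA+VitC iTreg, 6.67% and 33.3% beside 12.4% and 10.7%.

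5hmC over genes that mark other cell types moved with the groups as well. All counts here are against naive cells, where 20% of all genes were higher and 19.2% lower in Treg, 23.4% and 18.2% in TGFβ iTreg and 29.2% and 26.6% in RA+VitC iTreg. The summed level of 9 CD8 T and NK cell genes (of 11 listed) was 759.1 to 759.4 CPM in naive cells, 681.5 to 683.5 in Treg, 824 to 893 in TGFβ iTreg and 803 to 805 in RA+VitC iTreg. The higher sums in the cultures rest on Gzmb, which went from 152.4 CPM in naive cells to 326.7 in TGFβ and 349.6 in RA+VitC iTreg. Of the 9, 2 were higher and 6 lower in Treg, 2 and 4 in TGFβ iTreg, and 1 and 4 in RA+VitC iTreg. The 10 B cell genes, of which 9 were tested, summed to 190.4 to 191.8, 214 to 216, 183 to 218 and 176.5 to 191.5 CPM in the same order. Of them, 4 were higher and 0 lower in Treg, 3 and 1 in TGFβ iTreg, and 2 and 2 in RA+VitC iTreg. The 12 myeloid and dendritic cell genes (of 13 listed, 11 tested) summed to 505 to 509, 392 to 397, 491 to 511 and 347.5 to 383, with 1 higher and 3 lower in Treg and 5 higher and 3 lower in each culture. The 9 T cell genes (of 11 listed) summed to 2473 to 2483, 2053 to 2079, 2081 to 2304 and 2478 to 2623 CPM, with 0 higher and 8 lower in Treg and 2 higher and 6 lower in each culture. Of the 9 CD8 T and NK cell genes, 7 (Crtam, Eomes, Gzma, Gzmb, Klrd1, Klrk1 and Prf1) are also in the cytotoxic list, so these counts are not separate from its own. None of these lists was at 0 in any library, and their part in the results was not tested.

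The genes whose summed 5hmC ran most like a member's over the 8 pull-downs (Pearson's r of log2 CPM, among 8442 genes with at least 100 reads on average) are given as a description only, since all share the libraries and their depth. They were Bzw1 (r = 0.996), A430093F15Rik and Chrm4 for Cd4; Minos1 (0.996), Lsm14b and Serinc5 for Cd8a; and AW011738 (0.997), Prokr1 and Kif13a for Cd8b1. For the factors they were Sh3bp1 (0.971), Acap1 and Phf20 for Zbtb7b, Slc38a2 (0.988), Wapl and Irgm2 for Runx1, Trip12 (0.995), Neto2 and Cbx5 for Runx3, and Orai2 (0.985), Zyg11b and Leprot for Cbfb. Neto2 held 36.2 CPM in naive cells and 67.7 and 96.0 in TGFβ and RA+VitC iTreg, and Minos1 81.8, 59.1 and 56.9.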

How the data were processed

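Per the labels' protocols, DNA with spiked control amplicons was converted with bisulfite and precipitated with anti-CMS serum, and an input was kept. Build mm9 and these tools are named in the submitters' processing notes: MACS2 2.1.0.20151222, SAMtools 1.7, Trim Galore 0.4.2, bcl2fastq 2.20.0.442. For the aligner, the read counter and the pooling of peaks: not given in the sources used here. The authors deposited raw counts of reads in the union of called regions, with the nearest transcript's symbol. Assignment by nearness can give a region to a gene it does not act on, and spike-in reads were not used here. Counts of the 8 pull-downs, by region and summed by symbol, were fitted with edgeR 4.0.16 (R 4.3.3; TMM, filterByExpr with a minimum count of 10, quasi-likelihood F test, 4 residual degrees of freedom); diffSpliceDGE tested unequal change along a gene, DESeq2 1.42.0 served as an alternative, and the test was checked on simulated counts. SE is the absolute log2 fold change over the root of F. CPM of pull-downs use TMM-scaled sizes over the regions or genes tested, and CPM of inputs use plain library sizes. Regions were put upstream or downstream by their centre. Named were all 7 genes and, per gene, the regions at the start, with the most reads, with the lowest p over the groups and with the extreme fold changes. The members and lists were chosen with earlier results of these data known, so no adjusted p over a list alone is given. Intervals and floors cover counting error only. Alternatives were library size alone, no low-count filter, a replicate block, thinning to equal depth, a fit relative to input, DESeq2, transcript regions alone, leaving out the most-read region and leaving out each library.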

Additional observations from a re-analysis of the deposited data

How the results depend on the processing

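Of 42 fold changes (7 genes, 6 comparisons), 42 kept direction and call without the filter on low counts, 36 with library size alone, 37 after thinning all pull-downs to equal depth, 32 relative to input, 39 with DESeq2 and 38 over transcript regions alone. Without each gene's most-read region, 23 of 36 did (Zbtb7b has 1 region), 6 lost their call, 1 gained one and 6 changed sign. Counts of called regions fell with thinning, relative to input and with DESeq2 to 9, 3 and 9 for Treg against naive cells (35 in the report), to 32, 26 and 43 for RA+VitC iTreg against naive cells (74), to 15, 8 and 18 between the cultures (29) and to 36, 21 and 44 for RA+VitC iTreg against Treg (67); relative to input they fell to 19 for TGFβ iTreg against naive cells (45) and to 10 against Treg (34). Called genes for Treg against naive cells were 2, 3 and 3 under those settings (5), and 4 for TGFβ iTreg against naive cells without each gene's most-read region (7). Thinning left 1 uneven gene for Treg against naive cells (2) and 3 for RA+VitC iTreg against Treg (5).

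Leaving out 1 library at a time gave 19 to 38, 35 to 45, 47 to 75, 18 to 29, 21 to 36 and 47 to 70 called regions in the 6 comparisons (Treg, TGFβ iTreg and RA+VitC iTreg against naive cells, RA+VitC against TGFβ iTreg, then TGFβ and RA+VitC iTreg against Treg), 3 to 5, 6 to 7, 6, 2 to 4, 3 to 4 and 5 to 6 called genes, and 1 to 2, 3 to 4, 3 to 5, 2 to 3, 2 to 4 and 3 to 5 uneven genes. The lowest region counts came without naive replicate 2, TGFβ iTreg replicate 2, RA+VitC iTreg replicate 1, TGFβ iTreg replicate 1, TGFβ iTreg replicate 2 and RA+VitC iTreg replicate 1.

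Each value below changed sign under the setting named, was not called in the report or after the change of sign, and the cause was not tested. These were Cbfb between the cultures (-0.090 with library size alone, -0.030 thinned, -0.075 to 0.098 leaving out 1 library, -0.25 relative to input, -0.046 without its most-read region), Cbfb in TGFβ iTreg against Treg (0.11 relative to input, 0.058 without that region) and in RA+VitC iTreg against Treg (0.012 without it), Zbtb7b in RA+VitC iTreg against Treg (-0.048 with library size alone) and against naive cells (-0.15 to 0.0015 leaving out 1 library), Cd4 between the cultures (-0.062 to 0.53 leaving out 1 library, -0.076 without its most-read region), Cd8a between the cultures (-0.49 to 0.074 leaving out 1 library) and in Treg against naive cells (0.24 relative to input, 0.12 without its most-read region), Runx3 in Treg against naive cells (0.11 relative to input) and Runx1 in TGFβ iTreg against Treg (0.013 without its most-read region).

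Naive and Treg libraries share replicate numbers, and the titles of the cultures share suffixes whose meaning the labels do not give. Whether either marks shared mice or days is not known. Deviations of same-numbered samples from the group means correlated at 0.010 and 0.0059. These correlations cannot decide pairing, because the spread between replicates was near counting error (chi-square per degree of freedom 1.12 to 1.23). The main fit took the samples as unpaired. With a replicate block, 40 of 42 fold changes kept their call; Zbtb7b in TGFβ iTreg against naive cells was -0.23 (adjusted p = 0.11) and in RA+VitC iTreg 0.0062.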
